A study of Rattus norvegicus with 12 samples.

Results

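Transforming growth factor beta (TGF-beta) signalling was followed through 9 genes in RNA sequencing libraries of rat cells that had all been put through OGD/R (oxygen and glucose deprivation, then reperfusion), which models ischaemia in culture. The genes were taken by name from the deposited expression table, where each of them had 1 of the 18344 rows: the ligand genes Tgfb1, Tgfb2 and Tgfb3, the receptor genes Tgfbr1, Tgfbr2 and Tgfbr3, and Ccn1, Ccn2 and Tgfbi, which are known as early or direct targets. The 12 libraries formed the groups CIRBP, NC, si-CIRBP and si-NC, with 3 libraries each. CIRBP is set against NC and si-CIRBP against si-NC, and these pairs are called the 2 arms below. The sources used here do not say how the treatments were delivered or whether the arms share their cells, and untreated cells were not analysed here. One label names the cells H9C2, a myoblast line from embryonic rat heart, and another names rat astrocytes.

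TGF-beta ligands are secreted in a latent form, held in the matrix, and freed by integrins and proteases. An active ligand binds the type II receptor, encoded by Tgfbr2, which joins and phosphorylates the type I receptor, encoded by Tgfbr1, and Tgfbr1 in turn phosphorylates SMAD transcription factors. In heart and in cultured fibroblasts the pathway is known for matrix production and for contractile gene expression. Ccn1 (formerly Cyr61) and Ccn2 (formerly Ctgf) encode secreted matricellular proteins and respond both to SMADs and to the YAP coactivator with its TEAD partners.

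The promoters of Ccn1 and Ccn2 are shown because these genes had the largest decreases among the 9 in CIRBP. The sequences are from RefSeq on the build GRCr8, run from 250 bases before to 50 bases after the annotated gene start on the strand of the gene, and carry in capitals each match to the TEAD motif GGAATG or its reverse complement CATTCC. Ccn1 lies at chr2:237225640-237225939 and Ccn2 at chr1:22624565-22624864, both on the minus strand.
Ccn1: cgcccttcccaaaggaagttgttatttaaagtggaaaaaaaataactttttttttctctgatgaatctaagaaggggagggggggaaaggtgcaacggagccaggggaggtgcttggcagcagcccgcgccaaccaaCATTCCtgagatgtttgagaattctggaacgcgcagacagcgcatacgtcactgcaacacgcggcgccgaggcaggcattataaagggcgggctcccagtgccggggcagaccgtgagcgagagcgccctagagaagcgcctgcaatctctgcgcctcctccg
Ccn2: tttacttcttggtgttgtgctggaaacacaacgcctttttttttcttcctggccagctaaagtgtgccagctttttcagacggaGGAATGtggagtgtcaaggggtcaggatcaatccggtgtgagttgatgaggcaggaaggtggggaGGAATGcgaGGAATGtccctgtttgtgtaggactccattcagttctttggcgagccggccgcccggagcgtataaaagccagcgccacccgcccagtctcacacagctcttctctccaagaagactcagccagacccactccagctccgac
The Ccn2 window held 3 such matches and the Ccn1 window 1. Of 33469 rat promoters of that length, 14.2% held at least 1 match and 0.0956% at least 3. The short SMAD motif CAGAC, or GTCTG on the other strand, occurred 2 times in each of these windows, and 16.1% of all promoters held at least 2 matches. The sequence TATAAA or its reverse complement occurred 1 time in each, against at least 1 match in 14.2% of promoters. These motifs were searched on both strands, and no match of one overlapped a match of another in these windows. The promoters of the other 7 genes held none of these letters. Such matches describe the sequence and were not measured as bound sites.

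Levels are in FPKM, fragments scaled to transcript length and library size, so that genes can be compared within a library. Summed expression was 457775 to 502889 FPKM per library. FPKM do not hold the absolute depth, and relative to NC library 1 the spacing of low values gave depths of 0.842 to 1.03. Cirbp, the gene named in the treatments, was at 35.8 ± 1.27 FPKM in CIRBP and 19.7 ± 0.557 FPKM in NC (mean ± SD, n = 3 each; log2 fold change 0.83, limma adjusted p = 2.47e-06). It was at 27.6 ± 1.04 FPKM in the libraries labelled si-CIRBP and 26.7 ± 2.43 FPKM in si-NC (log2 fold change 0.05, limma adjusted p = 0.609, or 0.16 and 0.0434 after scaling to a common median), so the mRNA goes against that label. Below, si-CIRBP stands for the libraries labelled so, without a measured loss of Cirbp. Neither cell label was clear in the markers. Of 12 striated muscle markers in the table, of 18 listed, 2 had a group mean of at least 1 FPKM in CIRBP and in NC, 7 in si-CIRBP and 6 in si-NC. Of 7 astrocyte markers in the table, of 8 listed, 4 did in CIRBP and in NC and 5 in each of the other groups, and the markers did not share one order of the groups. Of 6 neuron and oligodendrocyte markers in the table, of 7 listed, 5 had a mean of at least 1 FPKM in each group. The highest was Sox10, a transcription factor of oligodendrocytes and Schwann cells, at 155 FPKM in CIRBP, 203 FPKM in NC, 124 FPKM in si-CIRBP and 164 FPKM in si-NC. The list summed to 208 to 210 FPKM in CIRBP, 228 to 229 FPKM in NC, 143 to 155 FPKM in si-CIRBP and 164 to 217 FPKM in si-NC. Most of each sum was Sox10, so it says little on the other markers.

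Library 1 of si-NC stood apart from the other two of its group. The summed level of 9 smooth muscle markers was 359 FPKM in that library, against 1729 and 1364 FPKM in si-NC libraries 2 and 3. It was 1061 to 1251 FPKM in si-CIRBP, 281 to 289 FPKM in CIRBP and 260 to 270 FPKM in NC. Library 1 of si-CIRBP also stood apart, with a summed level of the striated muscle markers of 46.4 FPKM, against 165 and 236 FPKM in libraries 2 and 3. Results on the 9 genes that rest on these libraries are therefore given with and without them.

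**Figure D1:**
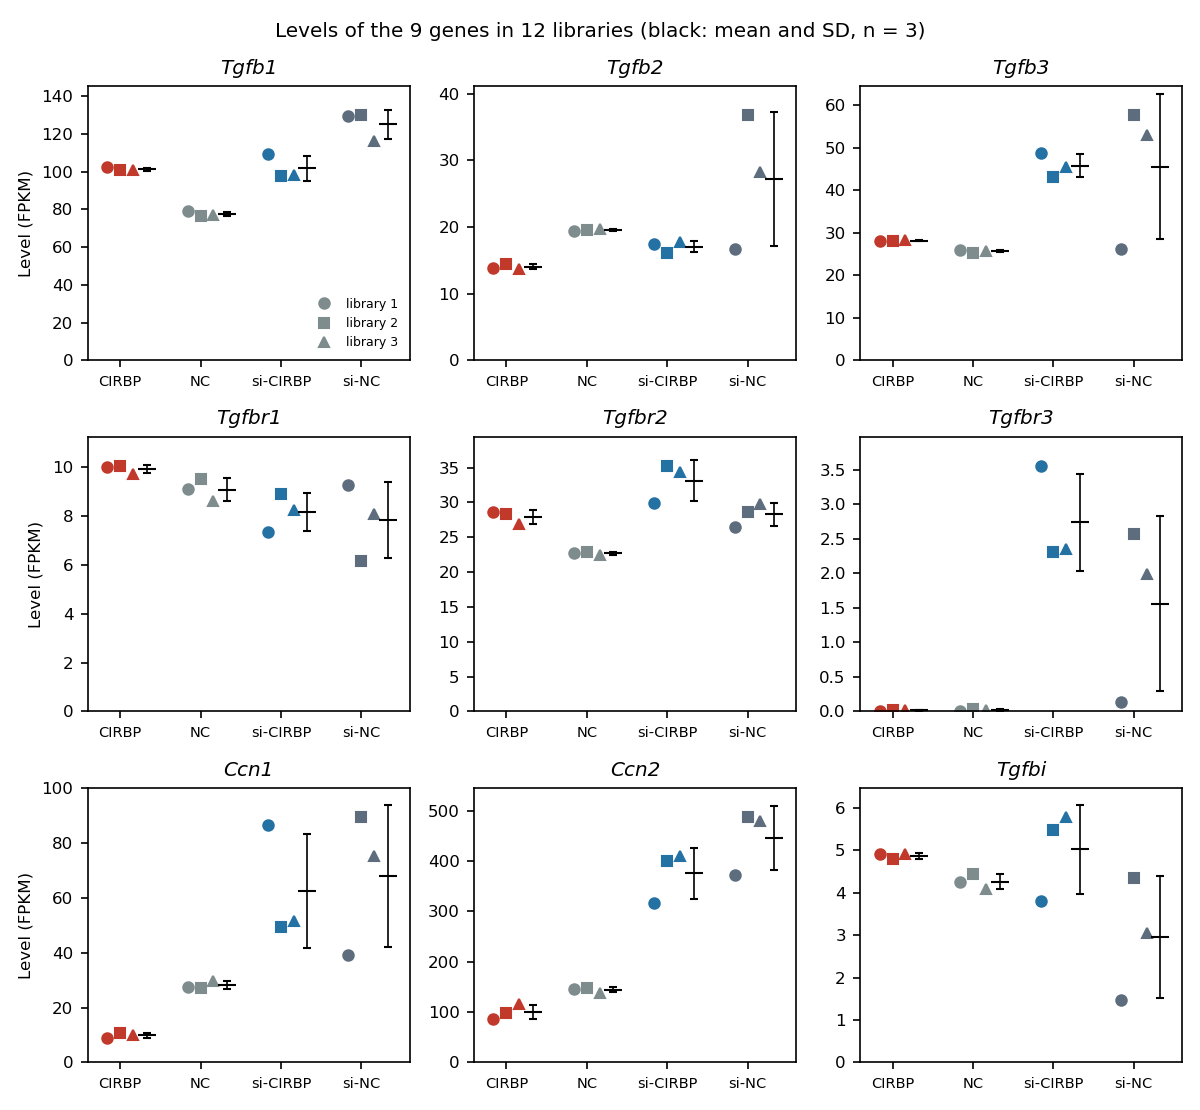
Level in FPKM (y axis, linear, from 0) of each of the 9 genes in the groups CIRBP, NC, si-CIRBP and si-NC (x axis); circles, squares and triangles are libraries 1, 2 and 3, and the black mark and bar are the mean and SD (n = 3). The CIRBP and NC libraries lie close together within a group, while si-NC library 1 lies below si-NC libraries 2 and 3 for Tgfb2, Tgfb3, Tgfbr2, Tgfbr3, Ccn1, Ccn2 and Tgfbi.

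In CIRBP the ligand gene Tgfb1 and the receptor gene Tgfbr2 rose while the target genes Ccn1 and Ccn2 fell. Of the 9 genes, 4 were called by limma at an adjusted p under 0.05 over all genes, 2 higher and 2 lower. In the same comparison 54.0% of the 14257 genes tested were called, 19.7% higher and 34.2% lower, so 4 of 9 is near that background. After scaling of each library to a common median, 52.1% of all calls were increases, against 36.6% without it, and 49.7% by median ratios. The median log2 fold change was 0.12 over the 9 genes and -0.08 over all genes, or 0.03 over all genes after that median scaling. Tgfbr3 passed the filter on low values only through libraries of the si groups. A fit of the CIRBP and NC libraries alone called 8 of the 8 genes of the set that it tested, beside 74.3% of all genes. For each of the 9 genes the SDs in FPKM were smaller in CIRBP and NC than in the si groups. The fits used log2 levels. With a separate variance factor for each group on that scale, 5 of the 9 were called beside 71.3% of all genes, and the factors themselves were not compared. Without si-NC library 1, 5 of the 9 were called beside 57.0% of all genes, and without library 1 of both si groups 6 beside 67.7%. In bulk libraries, fewer cells of a type and less RNA per cell cannot be told apart.

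Tgfb1 (ENSRNOG00000020652) was the most abundant of the ligand genes in every library. It stood at 102.3, 100.7 and 100.9 FPKM in CIRBP libraries 1, 2 and 3, against 79.0, 76.6 and 77.3 FPKM in NC. The groups did not overlap, and Tgfb1 rose 1.30-fold (log2 fold change 0.38, SE 0.0572, limma adjusted p = 0.000238). Groups that do not overlap were common in this comparison, at 74.7% of the genes tested.

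Tgfb2 (ENSRNOG00000002418) had 13.8, 14.5 and 13.8 FPKM in CIRBP, against 19.4, 19.6 and 19.7 FPKM in NC. All CIRBP libraries thus lay below all NC libraries, with a ratio of means of 0.717, but the change did not pass the test (log2 fold change -0.45, SE 0.203, limma adjusted p = 0.0837). The SE came from the spread of all groups, and Tgfb2 varied most in si-NC. The change was called in the fit of the CIRBP and NC libraries alone (limma adjusted p = 1.31e-05), where each group had its own variance factor (0.000587), without si-NC library 1 (0.00111), without si-NC library 2 (0.0223) and without library 1 of both si groups (0.000894).

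Tgfb3 (ENSRNOG00000009867) had 28.2, 28.1 and 28.3 FPKM in CIRBP, against 26.0, 25.4 and 25.7 FPKM in NC. The difference was small (log2 fold change 0.13, SE 0.222, limma adjusted p = 0.671) and passed the test only when the spread of the si groups was left out or reduced, in the fit of the CIRBP and NC libraries alone (0.00238) and without library 1 of both si groups (0.0130). The ligand mix was then compared as shares. Tgfb1 made up 70.6 ± 0.304% of the summed FPKM of the ligand genes in CIRBP and 63.2 ± 0.30% in NC, and Tgfb2 made up 9.77 ± 0.289% in CIRBP and 15.9 ± 0.286% in NC (SD, n = 3 each). For both shares the libraries did not overlap and the exact two-sided permutation test gave p = 0.1, the smallest that 3 against 3 libraries allow (adjusted p = 0.171 over the 12 comparisons of such shares, sums and ratios).

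Among the receptors, Tgfbr2 rose and Tgfbr1 did not pass the test. Tgfbr2 (ENSRNOG00000013265) had 28.6, 28.3 and 26.8 FPKM in CIRBP, against 22.7, 22.8 and 22.5 FPKM in NC (1.23-fold, log2 fold change 0.29, SE 0.0665, limma adjusted p = 0.00383). Tgfbr1 (ENSRNOG00000007036) had 10.01, 10.04 and 9.72 FPKM in CIRBP, against 9.10, 9.54 and 8.63 FPKM in NC (log2 fold change 0.12, limma adjusted p = 0.436). The groups did not overlap for either gene, and Tgfbr1 was at the threshold in the fit of those 6 libraries alone (limma adjusted p = 0.0498). Tgfbr3 (ENSRNOG00000002093), which encodes betaglycan, a co-receptor that presents ligand, was close to 0, with at most 0.0193 FPKM in CIRBP and 0.0330 FPKM in NC, and no fold is given.

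Ccn1 (ENSRNOG00000014350) had the largest change in CIRBP among the 9 genes. It had 8.89, 10.8 and 10.2 FPKM in CIRBP, against 27.5, 27.3 and 29.9 FPKM in NC, and every CIRBP library lay below every NC library. It fell to 0.352 times the NC mean (log2 fold change -1.42, SE 0.277, limma adjusted p = 0.00131). Ccn2 (ENSRNOG00000015036) stood at 86.4, 98.4 and 115 FPKM in CIRBP, against 145, 148 and 139 FPKM in NC. It fell to 0.695 times the NC mean (log2 fold change -0.53, SE 0.134, limma adjusted p = 0.00632), with the libraries spread more widely in CIRBP than in NC. The ratio of Ccn2 to Ccn1 was 10.1 ± 1.13 in CIRBP and 5.12 ± 0.418 in NC (exact two-sided permutation p = 0.1, the smallest possible, adjusted p = 0.171).

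Tgfbi (ENSRNOG00000012216) encodes a secreted matrix protein named for its induction by TGF-beta. It had 4.91, 4.78 and 4.90 FPKM in CIRBP, against 4.25, 4.44 and 4.08 FPKM in NC. The groups did not overlap, but the difference did not pass the test (log2 fold change 0.16, SE 0.231, limma adjusted p = 0.603), except in the fit of those 6 libraries alone (0.0213). The 3 target genes thus did not move in one direction. The calls of Tgfb1, Tgfbr2, Ccn1 and Ccn2 held under each of the 22 alternatives tried.

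**Figure D2:**
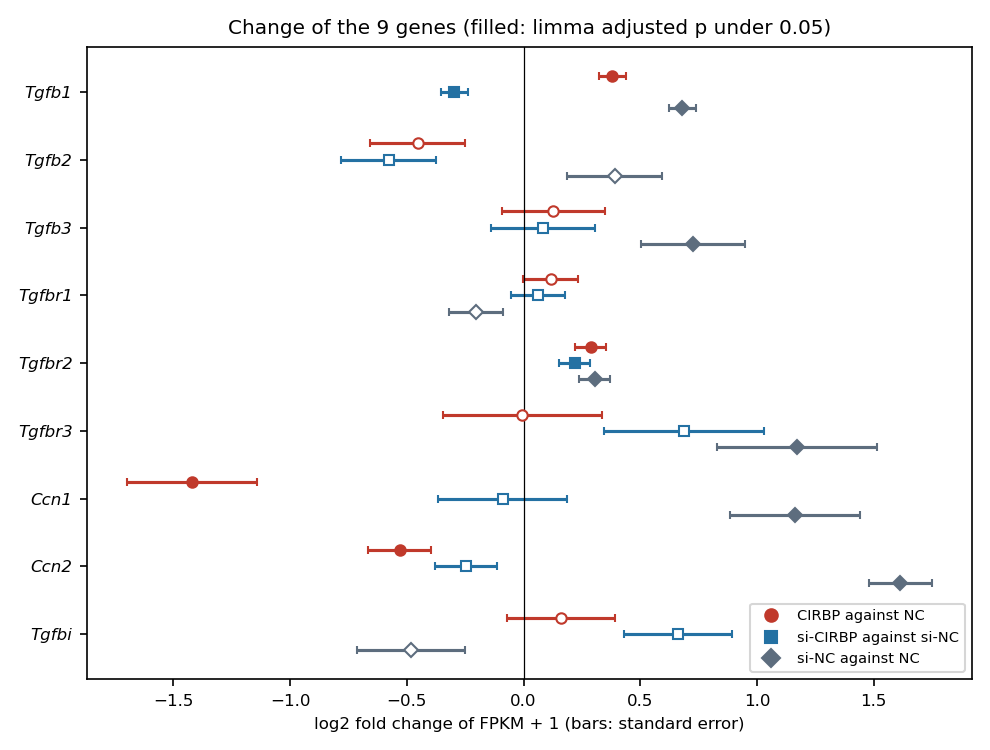
Log2 fold change of FPKM + 1 (x axis) with its standard error (bars) for the 9 genes (y axis) in CIRBP against NC, si-CIRBP against si-NC and si-NC against NC; filled points have a limma adjusted p under 0.05. Tgfb1 lies at 0.38 in CIRBP against NC and at -0.30 in si-CIRBP against si-NC, and Ccn1 at -1.42 and -0.09.

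The wider pathway was read from 9 further gene lists. Of 16 tested genes of latent TGF-beta storage and activation, 6 rose and 3 fell in CIRBP, beside 19.7% and 34.2% of all genes. Furin, the protease that cleaves the TGF-beta precursors, fell to 46.0 ± 0.762 FPKM in CIRBP, against 87.6 ± 3.81 FPKM in NC (log2 fold change -0.91, limma adjusted p = 1.47e-06). Itgb5 and Itgav, which encode the chains of an integrin that binds latent TGF-beta, rose, with Itgb5 at 88.2 ± 1.52 FPKM in CIRBP and 40.1 ± 0.551 FPKM in NC and Itgav at 167 ± 8.03 FPKM in CIRBP and 111 ± 3.39 FPKM in NC. Ltbp3, a latent TGF-beta binding protein, rose as well (log2 fold change 0.33, limma adjusted p = 0.000168). Itgb8, another integrin chain of the list, lay lower, at 81.2 ± 4.06 FPKM in CIRBP and 142 ± 13.0 FPKM in NC, without overlap. The median log2 fold change of the list was 0.03.

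Of 7 tested receptors of the related activin and BMP branches, 1 rose and 3 fell, beside 19.7% and 34.2% of all genes. The BMP type I receptor Acvr1, the activin receptor Acvr2a and the BMP type II receptor Bmpr2 fell by 0.37, 0.28 and 0.36 on the log2 scale, and Bmpr1a rose by 0.28. After median scaling 1 rose and 1 fell, and the increase of Bmpr1a was lost without library 1 or 2 of CIRBP or library 2 or 3 of NC. Of 6 tested ligand genes of those branches, 1 rose and 2 fell, beside the same shares of all genes. Bmp2 rose to 16.3 ± 1.15 FPKM in CIRBP, against 9.38 ± 0.178 FPKM in NC, and Gdf11 and Inhba fell (log2 fold changes -0.46 and -0.55). The call of Inhba was lost under 9 of 22 alternatives, among them leaving out any 1 of the CIRBP or NC libraries, and the count of 2 decreases ran from 1 to 4. Of 8 tested genes of SMADs and the SMAD anchor Zfyve9, 2 fell and 0 rose by limma (1 higher at an unadjusted p under 0.05, and 1 rose and 1 fell after median scaling), beside 34.2% and 19.7% of all genes. The decreases were Smad2, at 24.02 ± 1.23 FPKM in CIRBP and 34.3 ± 0.377 FPKM in NC, and Smad4, the shared partner SMAD, with a log2 fold change of -0.16. The call of Smad4 is near the threshold (limma adjusted p = 0.0356), and this count of 2 ranged from 1 to 5 over the alternatives.

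Genes that restrain the pathway changed in both directions. Of 12 tested, 4 rose and 6 fell, beside 19.7% and 34.2% of all genes. The 4 increases were 2 without library 1 or 2 of CIRBP or of NC. Pmepa1, a TGF-beta-induced membrane protein that holds back SMADs, had 9.40, 10.3 and 12.8 FPKM in CIRBP, against 77.9, 75.7 and 80.2 FPKM in NC (log2 fold change -2.75, SE 0.101, limma adjusted p = 3.42e-08). The CIRBP libraries lay far below all NC libraries. The SMAD corepressor Tgif2 and the ubiquitin ligase Nedd4l fell as well (log2 fold changes -1.12 and -0.93), and Bambi, a receptor decoy, rose to 22.7 ± 0.967 FPKM, against 15.4 ± 0.502 FPKM in NC. Tgif1, of the same list, also lay higher, at 41.0 ± 0.844 FPKM in CIRBP and 32.7 ± 0.510 FPKM in NC, without overlap. Tgif2 was much less abundant, at 1.94 ± 0.105 FPKM in CIRBP and 5.39 ± 0.108 FPKM in NC.

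Of 32 tested matrix and other target genes, 2 rose and 8 fell in CIRBP, beside 19.7% and 34.2% of all genes. Elastin, Eln, rose to 16.6 ± 0.746 FPKM in CIRBP, against 4.21 ± 0.513 FPKM in NC. Hmga2, Zeb2 and Bhlhe40, which encode transcriptional regulators, fell, with log2 fold changes of -0.84, -1.04 and -1.56. After median scaling 5 of the list rose and 5 fell, 5 fell without any 1 of the CIRBP libraries, and in the fit of those 6 libraries alone 12 rose and 10 fell. Of 8 contractile targets, Smtn rose (log2 fold change 0.34) and Myh11 fell (-0.97, at a mean level of 1.21 FPKM in CIRBP and 3.32 FPKM in NC). The call of Myh11 was lost without library 1 or 2 of CIRBP or library 1 or 3 of NC, and it did not pass a filter at 5 FPKM. The summed level of the 9 smooth muscle markers, 4 of them at a mean of 1 FPKM or more in CIRBP and 5 in NC, was 281 to 289 FPKM in CIRBP and 260 to 270 FPKM in NC.

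Of 17 tested further YAP target genes, 5 fell and 1 rose, which is a share of decreases near the 34.2% of all genes. Those that fell were Asap1, an Arf GTPase-activating protein, Amotl2, an angiomotin that binds YAP, Lats2, a kinase that inhibits YAP, Myof, a membrane repair protein, and the phosphatase Ptpn14. Amotl2 was at 19.3 ± 0.191 FPKM in CIRBP and 58.1 ± 0.448 FPKM in NC (log2 fold change -1.54, limma adjusted p = 1.72e-07). The log2 fold changes of Asap1, Lats2, Myof and Ptpn14 were -0.96, -0.94, -0.76 and -0.83. Nt5e, of the same list, lay the other way, at 28.7 ± 1.38 FPKM in CIRBP and 9.93 ± 0.173 FPKM in NC, without overlap. So did F3, at 82.6 ± 4.65 FPKM in CIRBP and 56.4 ± 1.16 FPKM in NC, and Crim1, at 15.4 ± 0.659 and 10.4 ± 0.568 FPKM. Of the 4 other CCN genes, the 2 tested were not called by limma (0 at an unadjusted p under 0.05).

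**Figure D3:**
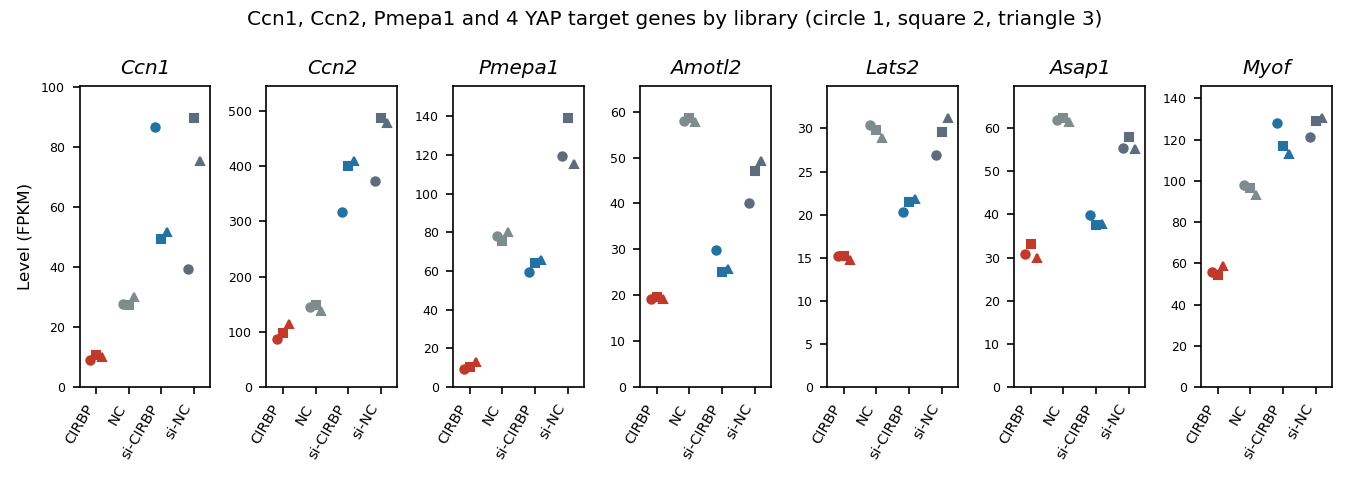
Level in FPKM (y axes, linear, from 0) of Ccn1, Ccn2, Pmepa1, Amotl2, Lats2, Asap1 and Myof in the groups CIRBP, NC, si-CIRBP and si-NC; circles, squares and triangles are libraries 1, 2 and 3. For each of these genes the CIRBP libraries lie below the NC libraries, with Pmepa1 at 9.40 to 12.8 FPKM in CIRBP and 75.7 to 80.2 FPKM in NC. All of them are among the genes called lower in CIRBP, so their shared direction follows from that choice. Nt5e, F3 and Crim1 of the YAP list, not shown, lay higher in CIRBP without overlap.

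In the libraries labelled si-CIRBP, Tgfb1 fell and Tgfbr2 rose relative to si-NC, and Ccn1 and Ccn2 were not called. This arm made 2 calls among the 9 genes, beside 29.6% of all genes (9.08% higher and 20.5% lower), with a median log2 fold change of 0.06 over the 9 genes, or -0.013 without Tgfbr3, and -0.04 over all. The fit of the si libraries alone called 0 of the 9 (1 at an unadjusted p under 0.05), beside 8.27% of all genes, with a limma adjusted p of 0.0769 for Tgfb1 and of 0.183 for Tgfbr2. Without si-NC library 1, 3 of the 9 were called beside 28.2% of all genes, and without library 1 of both si groups 6 beside 42.0%. Of all calls 30.7% were increases, against 56.0% after scaling to a common median, which moved the median of all genes to 0.06, and 46.1% by median ratios.

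Tgfb1 had 109, 97.6 and 98.2 FPKM in si-CIRBP, against 129, 129.8 and 116 FPKM in si-NC. No si-CIRBP library reached the lowest si-NC library, and 36.1% of all genes had groups that did not overlap. Tgfb1 fell to 0.813 times the si-NC mean (log2 fold change -0.30, SE 0.0572, limma adjusted p = 0.00336), a call lost after median scaling (-0.18, limma adjusted p = 0.0581). The direction was opposite to that in CIRBP, and the difference between the arms was 0.68 on the log2 scale (SE 0.0809, limma adjusted p = 0.000623), beside 17.8% of all genes called for that difference (6.87% higher and 10.9% lower). Of those calls 38.7% were positive, against 48.8% after scaling by median ratios. The difference of Tgfb1 held under each of the 21 alternatives, with adjusted p-values of 8.19e-05 to 0.00337. Mean Tgfb1 was alike in CIRBP and si-CIRBP, at 101.3 and 101.7 FPKM with overlap. The controls differed, with si-NC above NC by 0.68 on the log2 scale, and that gap enters the difference between the arms. In all, 2 of the 9 genes were called for the difference, against 4 without si-NC library 1 (beside 21.8% of all genes) and 4 without library 1 of both si groups (beside 41.6%).

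Tgfb2 had 17.4, 16.1 and 17.7 FPKM in si-CIRBP, against 16.7, 36.8 and 28.3 FPKM in si-NC. The groups overlapped through si-NC library 1, and the difference did not pass the test (log2 fold change -0.58, limma adjusted p = 0.0546). Without si-NC library 1 it was -0.88 (limma adjusted p = 0.000217), and it was also called with a filter at 5 FPKM (0.0448) and without library 1 of both si groups (0.000194). Tgfb3 had 48.7, 43.2 and 45.6 FPKM in si-CIRBP, against 26.2, 57.7 and 53.0 FPKM in si-NC. Its log2 fold change was 0.08 with all libraries (limma adjusted p = 0.812) and -0.27 without si-NC library 1 (0.00863), so that library alone sets the direction.

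Tgfbr2 stood at 29.9, 35.2 and 34.4 FPKM in si-CIRBP, against 26.5, 28.6 and 29.8 FPKM in si-NC. It rose 1.17-fold (log2 fold change 0.22, SE 0.0665, limma adjusted p = 0.0298). The call was lost without si-NC library 1 (0.0864). It was also lost without library 2 (0.0974) or 3 (0.0921) of si-CIRBP, and where each group had its own variance factor (0.108). Tgfbr1 had 7.35, 8.90 and 8.24 FPKM in si-CIRBP, against 9.26, 6.17 and 8.10 FPKM in si-NC, and the groups overlapped (log2 fold change 0.06, limma adjusted p = 0.723). Tgfbr3 was measurable in this arm, at 3.55, 2.31 and 2.34 FPKM in si-CIRBP, against 0.131, 2.57 and 1.98 FPKM in si-NC. Apart from si-NC library 1 the values overlapped (log2 fold change 0.69, limma adjusted p = 0.159, and 0.18 without that library). Only the 1.01 obtained without si-NC library 2 was called (0.0428).

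Ccn1 had 86.5, 49.3 and 51.6 FPKM in si-CIRBP, against 39.4, 89.4 and 75.3 FPKM in si-NC. In each group library 1 went the other way from libraries 2 and 3, and the difference was not called (log2 fold change -0.09, SE 0.277, limma adjusted p = 0.842). Without library 1 of both groups Ccn1 was lower in si-CIRBP (-0.69, limma adjusted p = 0.000669). Ccn2 had 317, 399 and 409 FPKM in si-CIRBP, against 372, 486 and 479 FPKM in si-NC, with overlap (log2 fold change -0.25, limma adjusted p = 0.198). The difference of Ccn1 between the arms was -1.33 on the log2 scale (SE 0.391, limma adjusted p = 0.0395). That call was lost without any 1 of the CIRBP libraries (0.0944, 0.0717 and 0.0727 without libraries 1, 2 and 3) or NC libraries (0.0789, 0.0770 and 0.0885), without si-NC library 3 (0.0523) and after scaling by median ratios (0.0540). It was -0.73 (0.00207) without library 1 of both si groups.

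Tgfbi was at 3.81, 5.46 and 5.77 FPKM in si-CIRBP, against 1.46, 4.34 and 3.06 FPKM in si-NC. The groups overlapped, and the difference was just short of a call (log2 fold change 0.66, SE 0.231, limma adjusted p = 0.0533). It was called after scaling to a common median (0.0335) or by median ratios (0.0440), without si-CIRBP library 1 (0.0275), without si-NC library 2 (0.00772) and without library 1 of both groups (0.00670).

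Around these genes, 5 of the 16 storage and activation genes rose in si-CIRBP and 3 fell, beside 9.08% and 20.5% of all genes. The 5 increases were 3 without library 2 of si-CIRBP, library 3 of si-NC, library 2 of CIRBP or any 1 of the NC libraries, and 1 in the fit of the si libraries alone. Furin averaged 67.3 ± 5.17 FPKM in si-CIRBP against 97.9 ± 6.83 FPKM in si-NC, and Itgb5 69.6 ± 9.90 FPKM in si-CIRBP against 42.4 ± 5.71 FPKM in si-NC (log2 fold changes -0.53 and 0.70, both called). Lrrc32, a membrane anchor of latent TGF-beta, was called lower as well (log2 fold change -0.95). Its level was low, at 1.61, 0.441 and 0.359 FPKM in si-CIRBP, against 2.32 ± 0.0649 FPKM in si-NC. It reached 1 FPKM only in the si-NC libraries and si-CIRBP library 1. Lrrc32 thus passed the filter through the group where it was high, and the count of 3 decreases depends in part on that filter. The fit of the si libraries alone lost its call (limma adjusted p = 0.0753). Of the other receptor genes Acvr1 fell (-0.29), and Acvr1b, an activin type I receptor, was called higher (0.23), a call that 15 of 22 alternatives lost, the fits without si-NC library 1 and without library 1 of both si groups among them. Of the ligand genes Bmp2 and Inhba fell, with Bmp2 at 8.56 ± 0.357 FPKM in si-CIRBP against 12.6 ± 1.41 FPKM in si-NC.

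Of the 8 SMAD and anchor genes 3 fell and 0 rose by limma (0 higher at an unadjusted p under 0.05, and 1 lower after median scaling), beside 20.5% and 9.08% of all genes. Those that fell were Smad2, Smad4 and Zfyve9 (log2 fold changes -0.39, -0.22 and -0.32), with Zfyve9 not called without library 1 of either si group and all 3 calls lost in the fit of the si libraries alone (0.0975 for the limma adjusted p of Smad2). Of 12 restraining genes 6 fell and 0 rose by limma (0 higher at an unadjusted p under 0.05), beside 20.5% and 9.08% of all genes. After median scaling 4 fell and 1 rose, and 2 fell in the fit of the si libraries alone. Pmepa1 had 59.4, 64.3 and 65.7 FPKM in si-CIRBP, against 119, 139 and 115 FPKM in si-NC (log2 fold change -0.97, limma adjusted p = 0.000103), without overlap. Nedd4l, the corepressor Skil and the ubiquitin ligase Trim33 fell too (-0.71, -0.62 and -0.48). Of 17 YAP targets 5 fell and 1 rose, beside 20.5% and 9.08% of all genes, with 8 lower without si-CIRBP library 1 and 10 without library 1 of both si groups. The decreases included Asap1, Amotl2, Lats2 and Ptpn14 (-0.54, -0.73, -0.44 and -0.48). Of 32 matrix and other targets 2 rose and 3 fell, beside 9.08% and 20.5% of all genes. Over the alternatives the increases ran from 0 to 6 and the decreases from 1 to 14 (9 without si-CIRBP library 1, 5 without si-NC library 1 and 14 without both). Eln was higher (1.10) and Hmga2, Zeb2 and Zeb1 were lower (-0.84, -0.94 and -0.22). The fit of the si libraries alone lost the calls of Eln (limma adjusted p = 0.0544), Zeb2 (0.0676) and Zeb1, and Zeb1 was also lost under either scaling. Of the 8 contractile targets 0 were called by limma (0 at an unadjusted p under 0.05, and 4 lower without si-NC library 1).

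**Figure D4:**
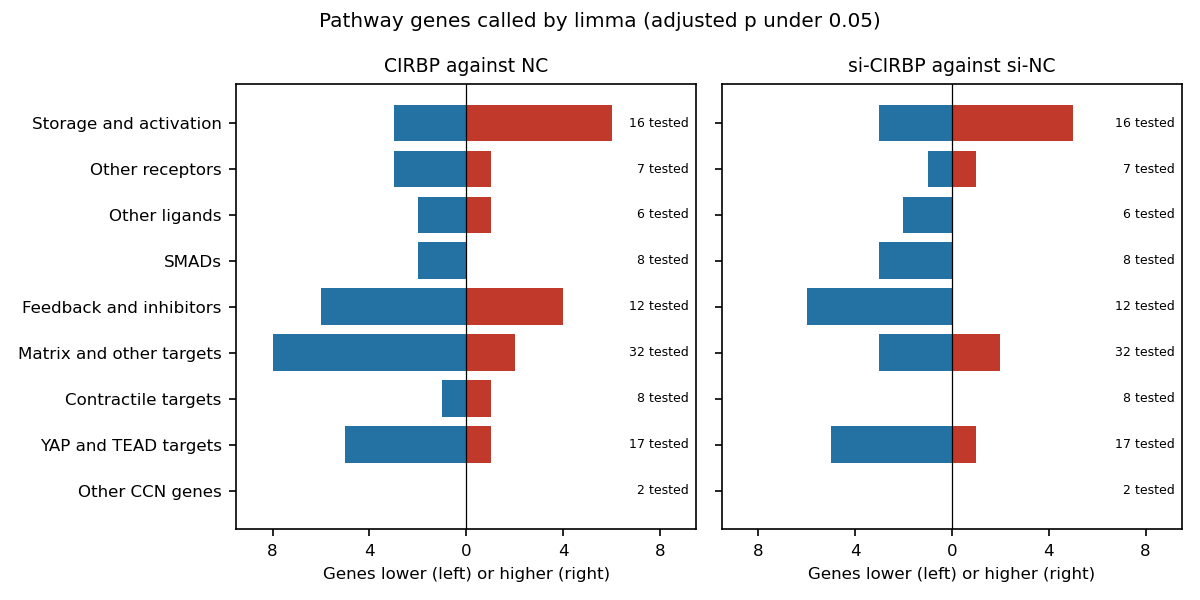
Number of genes of each pathway list (y axis) called lower (blue, to the left) or higher (red, to the right) by limma at an adjusted p under 0.05, in CIRBP against NC and in si-CIRBP against si-NC, with the number tested at the right. The restraining genes have 6 decreases in each arm, with 4 increases in CIRBP and 0 in si-CIRBP, where median scaling gave 1. Of all genes 34.2% were called lower and 19.7% higher in CIRBP, and 20.5% and 9.08% in si-CIRBP.

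Between the control groups, 6 of the 9 genes were higher in si-NC than in NC and 0 lower by limma (0 lower at an unadjusted p under 0.05), beside 12.5% and 21.9% of all genes, or 34.4% in both directions. One of the 6 was Tgfbr3, which passed the filter on low values only through si libraries and is given below by its levels alone, so 5 of the other 8 were called. The fit of the si-NC and NC libraries alone tested those 8 and called 4, beside 34.4% of all genes. Without si-NC library 1, 8 of the 9 were called beside 41.4% of all genes, and without library 1 of both si groups 8 beside 57.6%, with Tgfbr3 among them. In both of these fits Tgfb2 was called higher (log2 fold change 0.69) and Tgfbr1 was called lower (-0.32). The median log2 fold change was 0.54 over the 8 genes and -0.07 over all. The arms differ here in treatment and possibly in cells or handling, which cannot be told apart, and NC and si-NC are also the controls of the comparisons above. Ccn2 had 446 ± 63.8 FPKM in si-NC against 144 ± 4.81 FPKM in NC (log2 fold change 1.61, SE 0.134, limma adjusted p = 6.58e-05). Ccn1 had 68.0 ± 25.8 FPKM in si-NC against 28.2 ± 1.44 FPKM in NC (1.16, limma adjusted p = 0.00982), and Tgfb1 had 125 ± 7.63 FPKM in si-NC against 77.6 ± 1.21 FPKM in NC (0.68, limma adjusted p = 6.93e-05). For these genes each si-NC library lay above each NC library, as did 53.1% of all genes in one direction or the other. Tgfbr2 was also called (0.30, limma adjusted p = 0.00686). With all libraries Tgfb2, Tgfbr1 and Tgfbi were not called (0.39, -0.20 and -0.48, limma adjusted p = 0.162, 0.198 and 0.132), and their groups overlapped.

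Tgfb3 was higher in si-NC by 0.73 on the log2 scale, with si-NC library 1 nearer to the NC libraries than to si-NC libraries 2 and 3. It was at 26.2 FPKM in si-NC library 1 and 57.7 and 53.0 FPKM in libraries 2 and 3, against 25.4 to 26.0 FPKM in NC, and without library 1 its log2 fold change was 1.08. The call of Tgfb3 (limma adjusted p = 0.0287) was lost without NC library 1, 2 or 3 (0.0705, 0.0775 and 0.0732), without si-NC library 2 or 3 (0.105 and 0.108) and in the fit of those 6 libraries alone (0.0872). Tgfbr3 was at 0.131 FPKM in si-NC library 1 and 2.57 and 1.98 FPKM in libraries 2 and 3, against at most 0.0330 FPKM in NC, and no fold is given. Smooth muscle markers were low together with both genes in si-NC library 1, and their part in the result was not tested. Within si-CIRBP the order differed. Library 1 had the lowest marker sum there (1061 FPKM, against 1100 and 1251 FPKM in libraries 2 and 3) but the highest Tgfb3 and Tgfbr3 (48.7 and 3.55 FPKM). All 9 smooth muscle markers had a mean of at least 1 FPKM in si-CIRBP and in si-NC. Of the 12 restraining genes 3 rose and 5 fell in si-NC, and of the 32 matrix and other targets 16 rose and 2 fell, beside 12.5% and 21.9% of all genes. The 16 increases were 10 without si-NC library 2, 9 without si-NC library 3 and 10 without NC library 2. The collagen genes Col1a1 and Col3a1 were higher by 6.35 and 6.24 on the log2 scale, and by 7.54 and 7.44 without si-NC library 1. Beside the same shares of all genes, 5 of the 8 contractile targets rose and 0 fell by limma (0 lower at an unadjusted p under 0.05). Of the 17 YAP targets 7 rose and 2 fell, with 4 higher without library 2 or 3 of si-NC. The matrix, contractile and YAP lists hold genes that, like Tgfbr3, passed the filter on low values only through si libraries. Examples are Lox, Cnn1 and Ccdc80, with means of 0.0655, 0.186 and 0.136 FPKM in NC. The counts of increases in these lists therefore depend in part on that filter.

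**Figure D5:**
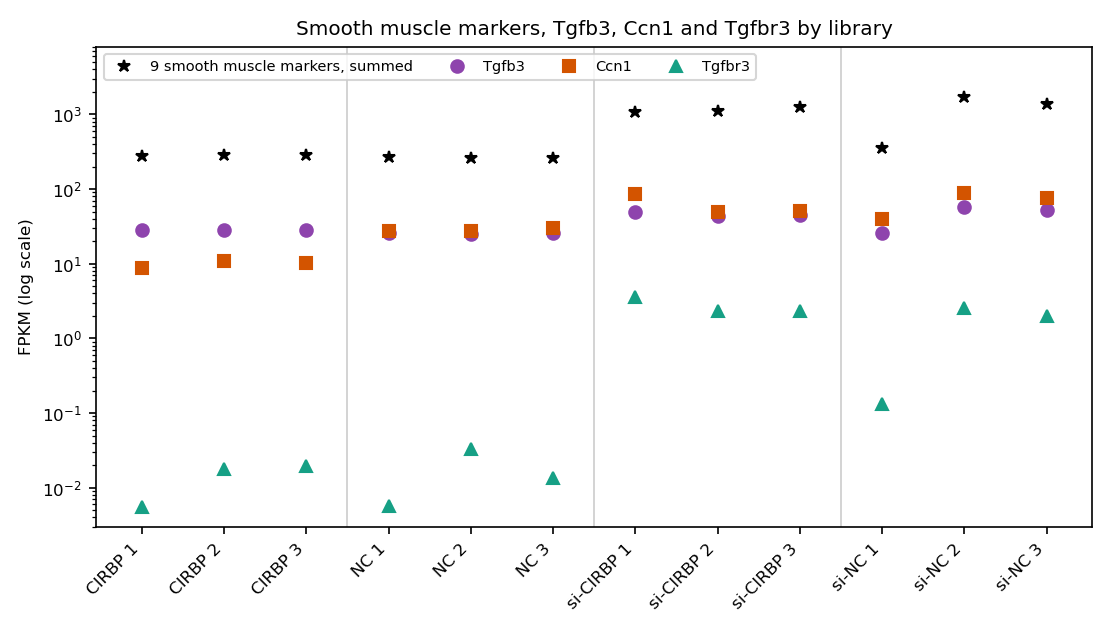
FPKM on a log scale (y axis) of the 9 summed smooth muscle markers (stars), Tgfb3 (circles), Ccn1 (squares) and Tgfbr3 (triangles) in each of the 12 libraries (x axis). In si-NC library 1 the markers sum to 359 FPKM and Tgfbr3 is at 0.131 FPKM, between the values of the CIRBP and NC libraries and those of the other si libraries.

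Over the 4 groups, Ccn1 and Ccn2 had the same order of means, si-NC, si-CIRBP, NC and CIRBP from high to low, with overlap only between the si groups. The highest mean was 6.85 times the lowest for Ccn1 and 4.46 times for Ccn2. Tgfb1, Tgfb3 and Tgfbr2 were lowest in NC, and Tgfb2 was lowest in CIRBP. Tgfbr1 varied least, with its highest mean, in CIRBP, 1.27 times its lowest, in si-NC. Within a library Ccn2 and Tgfb1 were among the abundant transcripts: Ccn2 exceeded 94.4% of all tested genes in CIRBP, 96.8% in NC, 98.8% in si-CIRBP and 99.2% in si-NC.

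As a description over the 12 libraries, which share 4 groups and 2 arms, the log2 levels of Tgfb3 and Tgfbr3 had a Pearson correlation of 0.956 and those of Ccn1 and Ccn2 of 0.912, while Tgfbr1 ran against Ccn1 at -0.840. Among 11062 other named genes, those most like Tgfb3 were Myocd (0.992), which encodes the smooth muscle coactivator myocardin, Abca9 (0.991) and Mylk (0.990), the myosin light chain kinase. Those most like Ccn1 were Actn1 (0.993), which encodes an actin crosslinker, Neu1 (0.993) and Gfod1 (0.988), and those most like Ccn2 were Calr (0.987), Ifitm3 (0.980) and Acsl5 (0.977). For Tgfbr3 they were Acaa2 (0.997), Slc8a1 (0.997) and Steap2 (0.997). Tgfb2 was most like Ttc13 (0.969), Foxp1 (0.960) and Arid5b (0.956), Tgfbr1 most like Fam102b (0.979), Cdk6 (0.951) and Gcnt1 (0.949), and Tgfbr2 most like Nnt (0.969), Plp2 (0.955) and Ap3m1 (0.955). The closest genes to Tgfb1 and Tgfbi were less alike, at no more than 0.920 for Psmb9 and 0.908 for Ephb3.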

How the data were processed

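Poly-A RNA had been sequenced paired-end in 12 libraries, grouped by their titles, which call them biological replicates. Columns were matched to titles by group name and number, and the columns of CIRBP and NC start with "ad", which no label used here explains. Whether they came from separate cultures is not stated, so p-values measure the spread between these libraries. The deposited table gives FPKM for each gene in every library, per the file headers. The submitters' processing notes list Bowtie2 2.3.3.1, Cufflinks 2.2.1, GRCm38 and mm10 with no roles. The builds are of mouse but 16618 of 18344 rows have rat Ensembl identifiers, so the build is unclear and coordinates come only from RefSeq promoters, matched by symbol for 9 of 9 genes. Strand and shared reads are not described in these sources.

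log2(FPKM + 1) was fitted with limma 3.58.1 (trend, R 4.3.3), keeping 14257 genes that reached 1 FPKM in 3 libraries, with 1 coefficient per group, 8 residual and 2.53 prior degrees of freedom, and Benjamini-Hochberg adjustment over all genes. Fold changes understate low genes. The fit was also run on simulated data in which all groups shared the same spread for each gene. That run does not cover groups of unequal spread. Depth ratios are the mode of ratios of values under 0.3 FPKM. Replicate numbers do not pair the libraries. Most named list genes are the called ones of lowest adjusted p (at most 4 per list and comparison), and some others are named beside them. Members, lists and rules were chosen with earlier results of these data known. Alternatives were another scaling, pseudocount, filter, block, variance model or sample set, and leaving out each library.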

Additional observations from a re-analysis of the deposited data

Results flagged for a closer look

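For the genes below the response differed between the arms, by limma's test of the CIRBP against NC change minus the si-CIRBP against si-NC change (adjusted p over all genes). Cirbp differed by 0.78 on the log2 scale (adjusted p = 0.000577), being higher in all 3 CIRBP libraries than in any NC library and not called in si-CIRBP. Tgfb1 differed by 0.68 (adjusted p = 0.000623), with opposite changes that were both called. Its means were alike in CIRBP and si-CIRBP (101.3 and 101.7 FPKM), while si-NC lay above NC by 0.68 on the log2 scale. Ccn1 differed by -1.33 (adjusted p = 0.0395), a call that 9 of 21 alternatives lost.

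Among the other pathway genes named, Bmp2 (1.24, adjusted p = 0.000247) and Bambi (0.77, adjusted p = 0.00148) also were called higher in CIRBP and lower in si-CIRBP, though 15 of 22 alternatives lost the call of Bambi in si-CIRBP. Pmepa1 (-1.78, adjusted p = 0.000228), Amotl2 (-0.81, adjusted p = 0.00137), Lats2 (-0.50, adjusted p = 0.00321), Asap1 (-0.43, adjusted p = 0.00298) and Furin (-0.38, adjusted p = 0.0195) fell in both arms and further in CIRBP, where 3 of 21 alternatives lost the call of the difference for Furin. Itgav (0.39, adjusted p = 0.0127) was called higher in both arms and further in CIRBP, with the si-CIRBP call lost under 11 of 22 alternatives. Tgif2 (-1.04, adjusted p = 0.000343), Myof (-0.67, adjusted p = 0.000612) and Gdf11 (-0.59, adjusted p = 0.0291) were called lower in CIRBP and not called in si-CIRBP, and Acvr1b (-0.40, adjusted p = 0.0245) was called higher in si-CIRBP alone, a call lost under 15 of 22 alternatives. The call of the difference was lost under 7 of 21 alternatives for Gdf11 and 4 of 21 for Acvr1b. Tgif1 differed as well (0.57, adjusted p = 0.00107), with a mean higher in CIRBP than in NC and lower in si-CIRBP than in si-NC.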

How the results depend on the processing

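In CIRBP against NC, 7695 genes and 4 members of the set were called, and 22 alternatives stayed within 1.5 times of these counts, except for 8 members in the fit of the compared groups alone. In the si arm that fit called 1118 genes and 0 members by limma (1 at an unadjusted p under 0.05), against 4218 and 2 with all libraries, and a separate variance factor for each group gave 2019 genes and 1 member. The numbers do not pair the libraries (correlations of same-numbered libraries of -0.0898 to 0.0995, although each CIRBP library correlated best with its own number in NC). With the replicate block, 1 member was called for the difference between the arms, against 2, since Ccn1 was lost (adjusted p = 0.0693 with limma), and Tgfbi was called in the si arm (0.0398). Scaling by median ratios also gave 1 member there.

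Leaving out 1 library at a time gave 1529 to 4503 genes and 1 to 4 members for the difference between the arms (2535 genes with all), 2950 to 6698 genes between the controls (4909 with all) and 1 to 4 members in the si arm. Log2 fold changes that turned in sign over these fits ran from -0.013 to 0.0064 for Tgfbr3 in CIRBP against NC. In the si arm they ran from -0.44 to 0.15 for Ccn1, -0.27 to 0.29 for Tgfb3, -0.080 to 0.18 for Tgfbr1 and -0.018 to 0.11 for Cirbp. For the difference they ran from -0.12 to 0.43 for Tgfb2, -0.16 to 0.40 for Tgfb3, -0.06 to 0.20 for Tgfbr1 and -0.0041 to 0.11 for Tgfbr2.

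Without library 1 of both si groups, chosen after seeing the data, 6 members were called in the si arm, 5880 genes and 4 members for the difference, and 8139 genes between the controls. The si arm then had Cirbp at 0.14, Tgfbr1 at 0.24, Tgfb3 at -0.31 and Ccn1 at -0.69, and the difference had Tgfb2 at 0.44, Tgfb3 at 0.44 and Tgfbr1 at -0.13. Scaling to a common median put Ccn1 at 0.028 in the si arm. Apart from settings that by construction use fewer libraries or another spread, the cause was not tested. FPKM give no absolute depth, so no counting error can be set beside the low values of Tgfbr3.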
